A study of Rattus norvegicus with 12 samples.

Results

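Protein quality control in and around the endoplasmic reticulum (ER) was followed in cultured rat oligodendrocyte precursor cells (OPCs) through 7 genes, Pdia4, Man1a2, Sec23a, Plaa, Yod1, Bag2 and Wfs1, out of 30562 annotated genes. The genes were chosen by name. Because the count tables list Ensembl identifiers only, each symbol was joined to its gene through the mean and the log2 fold change given in the study's supplementary list of genes that differed between CTK-2 and CTL. Of the 1786 entries of that list, 1773 matched exactly 1 gene, and 99.94% of the 1756 matches with a chromosome in both annotations lay on the same chromosome. A symbol therefore marks a gene whose difference between CTK-2 and CTL was known from these same libraries, and its values in that comparison are a description only. All 7 genes passed the filter on low counts, a mean of at least 5 counts over the 12 libraries, which 13348 genes passed.

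The OPCs came from the brain cortex of wild-type rat pups of postnatal days 0 to 2, with male and female animals pooled, and were shaken off mixed glial cultures after a first shake against microglia. All cells were moved to differentiating medium when the treatments began. The group CTK-2 received IFN-γ, IL-1β and TNF-α, each at 2 ng/mL, the group GAL received galinex at 10 nM, an agonist of the membrane receptor GPR17, and the group CTK2+GAL received both, with galinex added 6 h after the cytokines. CTL received neither cytokines nor galinex, wells without galinex were given DMSO, the solvent, instead, and RNA was taken 24 h after the galinex step. Each group had 3 replicates. No source says whether these were separate cultures, so the p-values measure only the spread between these samples, which may be technical.

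Secreted and membrane proteins are folded in the ER, where chaperones and disulfide isomerases act on the new chain and glycan trimming marks how long a glycoprotein has been there. Folded cargo leaves in vesicles with the COPII coat. Chains that fail to fold are pulled back to the cytosol, tagged with ubiquitin and degraded, a route called ER-associated degradation. A load beyond this capacity starts the unfolded protein response. Oligodendrocytes carry a heavy load of this kind when they make the lipids and membrane proteins of myelin.

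The library totals lay between 2600797 counts, in GAL replicate 1, and 8978185 counts, in CTK2+GAL replicate 3. CTL replicate 3 and GAL replicate 3 stood apart from the other libraries without cytokines. The summed level of 21 interferon-induced genes was 567.8 CPM (read pairs counted on a gene, scaled to a common library size) and 502.2 CPM there, against 70.61 to 81.48 CPM in the other 4 libraries without cytokines and 4203 to 4444 CPM in the 6 libraries with cytokines. Pdgfra, Cspg4 and Ptprz1, the 3 of 4 OPC markers with a symbol, summed to 2235 to 2500 CPM without cytokines and 3926 to 4227 CPM with them. Mag, Mog and Cldn11, 3 of 6 markers of maturing oligodendrocytes, summed to 252.8 to 314.6 CPM without and 131 to 151.2 CPM with cytokines. The 2 of 8 microglial markers with a symbol, Csf1r and P2ry12, summed to 1.72 to 6.648 CPM without and 11.86 to 16.1 CPM with cytokines. Tubb3, 1 of 4 neuronal markers, lay at 80.05 to 98.66 CPM without and at 156 to 189.2 CPM with cytokines. None of these markers was at 0 in any library. No marker of astrocytes or of endothelium had a symbol, nor had any of 5 listed for the oligodendrocyte lineage as a whole. Only genes that the study called in CTK-2 versus CTL carry a symbol, so unchanged markers could not appear. The sums are therefore no measure of the mix of cells, and the part of these shifts in the results below was not tested.

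In mRatBN7.2, the rat build of the count tables, Pdia4 (ENSRNOG00000006228) lies on the minus strand of chromosome 4 from 76803198 to 76822107. Man1a2 (ENSRNOG00000015226) lies on the minus strand of chromosome 2 from 187951617 to 188096332, and Sec23a (ENSRNOG00000004657) on the minus strand of chromosome 6 from 76658427 to 76706035. Plaa (ENSRNOG00000007753) lies on the minus strand of chromosome 5 from 109428265 to 109460282, and Yod1 (ENSRNOG00000025704) on the plus strand of chromosome 13 from 42174820 to 42177205. Bag2 (ENSRNOG00000012709) lies on the minus strand of chromosome 9 from 35970033 to 35980721, and Wfs1 (ENSRNOG00000005108) on the plus strand of chromosome 14 from 73810404 to 73835602. The counts cover the exons of each gene together, and no exon of the 7 genes overlaps an exon of another gene on either strand.

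The 250 bases before the start of all 7 genes were read from RefSeq on the later build GRCr8 and searched on both strands for letters known from ER stress and inflammatory control. The core of the unfolded protein response element, TGACGTGG, which is bound by factors of that response, was found before Sec23a and Bag2 and before 0.55% of 27457 rat genes. The CCAAT box, which general promoter factors bind, was found before Pdia4, at 3 places, and before Wfs1, at 1 place, and before 34.29% of the rat genes. The 3 windows with a response element core or with several CCAAT boxes are shown here 5′ to 3′ on the strand of the gene, with the matched letters in capitals. They lie at chr6:82440905-82441154 (minus strand) for Sec23a, at chr9:43476638-43476887 (minus strand) for Bag2 and at chr4:78153192-78153441 (minus strand) for Pdia4, all on GRCr8.
Sec23a: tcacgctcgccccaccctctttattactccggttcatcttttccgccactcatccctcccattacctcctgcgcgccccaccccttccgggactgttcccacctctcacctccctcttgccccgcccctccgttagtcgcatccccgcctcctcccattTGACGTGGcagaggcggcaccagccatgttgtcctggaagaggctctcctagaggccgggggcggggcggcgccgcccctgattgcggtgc
Bag2: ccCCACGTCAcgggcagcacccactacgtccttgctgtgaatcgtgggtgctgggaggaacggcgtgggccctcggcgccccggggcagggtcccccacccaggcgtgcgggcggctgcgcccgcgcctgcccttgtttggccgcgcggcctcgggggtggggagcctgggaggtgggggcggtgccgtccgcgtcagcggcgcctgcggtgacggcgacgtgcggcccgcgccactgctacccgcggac
Pdia4: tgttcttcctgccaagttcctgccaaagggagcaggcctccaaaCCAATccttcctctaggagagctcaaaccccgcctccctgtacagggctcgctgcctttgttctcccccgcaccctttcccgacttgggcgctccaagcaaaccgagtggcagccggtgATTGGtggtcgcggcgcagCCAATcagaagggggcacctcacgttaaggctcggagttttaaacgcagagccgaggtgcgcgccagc

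The match before Sec23a begins 91 bases before the start. In Bag2 it begins at base -248 and reads CCACGTCA, the other strand of the core. The shorter run CCACG, which the core contains on its other strand, was found before Man1a2, Sec23a and Bag2 and before 27.95% of the rat genes. The full ER stress response element, CCAAT and CCACG with 9 bases between them, and its second form, ATTGG and CCACG with 1 base between them, were in none of the 7 windows, against 0.076% and 0.044% of the rat genes. The ATF4 composite element TGATGNAAT (0.929% of the rat genes), the sterol element core TCACNCCAC (0.976%), the interferon gamma activated site TTCNNNGAA (7.524%) and the interferon stimulated response element, GAAA repeated after 2 bases (3.285%), were not in these windows either. The windows were rich in G and C, between 54.4% in Yod1 and 77.6% in Bag2, with a median of 52.0% over all rat genes. The response element core holds the base pair step CG, which occurred 19 times before Sec23a and 34 times before Bag2, against a median of 6. All rat genes are therefore not a like set for that core. Letters in a window are a description and show no binding.

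Plaa had the highest mean of the 7 genes per length in all 4 groups. In CTL its level was 47.1 ± 3.61 CPM per kilobase of exon (SD, n = 3), followed by Sec23a at 41.5 ± 3.55, Pdia4 at 38.8 ± 0.861, Man1a2 at 33.9 ± 1.40 and Yod1 at 13.6 ± 1.80 CPM per kilobase. Bag2 at 3.15 ± 0.160 and Wfs1 at 2.19 ± 0.334 CPM per kilobase were far below. Plaa and Sec23a overlapped between libraries of CTL, as did Sec23a and Pdia4, and the other neighbours in this order did not. Sec23a lost its place with cytokines. It was second of 7 in CTL and in GAL, at 43.2 ± 1.72 CPM per kilobase in the latter, and stood below Plaa, Pdia4 and Man1a2 in CTK-2, at 19.2 ± 0.850, and in CTK2+GAL, at 20.4 ± 0.632 CPM per kilobase. The lowest place went to Wfs1 in 3 groups and to Bag2 in CTK-2, and the libraries of these 2 genes overlapped in every group but CTL.

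**Figure D1:**
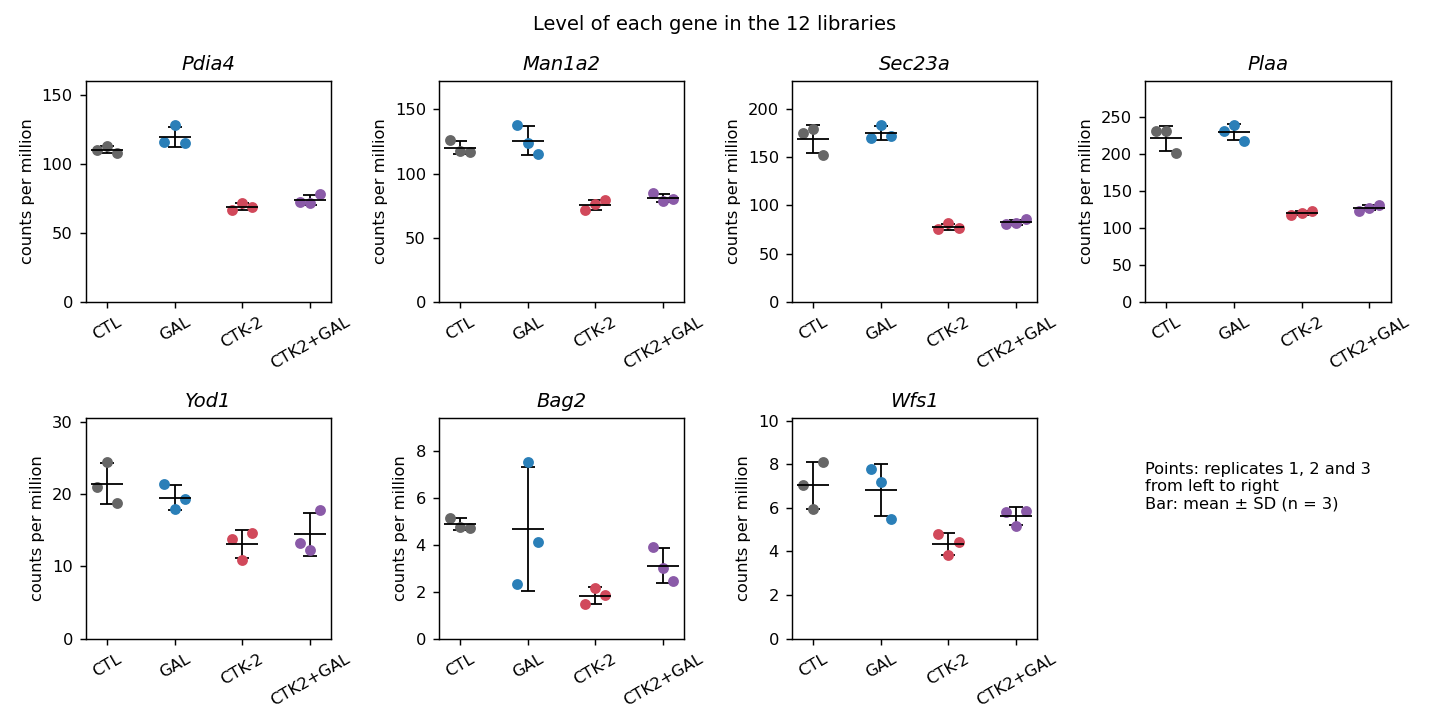
Level of each of the 7 genes in CPM (vertical axis, from 0) in the 12 libraries, grouped as CTL, GAL, CTK-2 and CTK2+GAL, with the mean and SD of the 3 replicates. The 6 libraries with cytokines lie below the 6 without them in Pdia4, Man1a2, Sec23a, Plaa and, narrowly, Yod1, while Bag2 and Wfs1 overlap and GAL scatters widely in Bag2.

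Between CTK-2 and CTL all 7 genes were lower in CTK-2, with log2 fold changes between -0.67 (Man1a2) and -1.39 (Bag2). All 7 passed the thresholds for a differentially expressed gene (DEG) in edgeR's quasi-likelihood test, with an adjusted p no higher than 0.05 and a log2 fold change of 0.59 or more in either direction. The libraries of the groups did not overlap in any of them. Of all tested genes 5.79% were called lower by this rule and 23.8% were lower without overlap. The 7 genes were named from a list of DEGs of this comparison, so nothing is read from their count. In these bulk libraries a lower level per cell and a smaller share of cells that use the gene cannot be told apart.

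Galinex was present on both sides of the comparison CTK2+GAL versus GAL, and its 6 libraries are not of the groups compared in the list that gave the symbols, although they entered the means of that list. There 4 of the 7 genes fell, Sec23a, Plaa, Pdia4 and Man1a2, and 5.74% of all tested genes were called lower. Yod1, Bag2 and Wfs1 did not pass. In 5 of the 7, the 4 that fell and Yod1, every CTK2+GAL library lay below every GAL library, as it did in 24.0% of all genes. The median log2 fold change was -0.69 over the 7 genes and 0.0062 over all tested genes. The 7 genes were already known to be lower with the same cytokines in CTK-2 versus CTL. All tested genes are therefore not a like set, and nothing is read from the distance of these medians. All 7 genes also stand among the leading-edge genes of an ER set that the study ranked on CTK2+GAL versus CTK-2, so the CTK2+GAL libraries had a part in how they were chosen. The study gives its set for ER protein processing a negative score and reads such sets as lower in CTK2+GAL than in CTK-2. In these counts all 7 genes had the opposite direction, with higher values in CTK2+GAL. Whether the ranking was taken as CTK2+GAL minus CTK-2 or the other way could not be settled from these counts.

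Pdia4 encodes a protein disulfide isomerase, an enzyme that makes and rearranges disulfide bonds in the ER lumen. Its level was 110.3, 112.9 and 108.0 CPM in the CTL replicates and 66.5, 71.8 and 68.7 CPM in those of CTK-2. In GAL it was 115.6, 128.1 and 115.3 CPM, and in CTK2+GAL 72.1, 71.9 and 78.2 CPM. Every library with cytokines lay below every library without them. The log2 fold change was -0.68 in CTK-2 versus CTL (SE 0.0636) and -0.69 in CTK2+GAL versus GAL (SE 0.0626, adjusted p = 6e-08, edgeR), which left 61.9% of the level in GAL.

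Man1a2 encodes a Golgi alpha-mannosidase that trims mannose from N-glycans of proteins that have left the ER. It lay at 125.9, 117.5 and 117.2 CPM in CTL and at 71.7, 76.3 and 79.1 CPM in CTK-2. In GAL it lay at 137.7, 124.3 and 115.2 CPM and in CTK2+GAL at 84.6, 78.6 and 80.2 CPM. The libraries with and without cytokines did not overlap. Man1a2 was nearest to the fold threshold of the 4 genes that fell, with a log2 fold change of -0.62 in CTK2+GAL versus GAL (SE 0.0679, adjusted p = 7.29e-07). It dropped under that threshold, at -0.56, without GAL replicate 1, the highest and shallowest library, and at -0.585 with total counts in place of TMM.

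Sec23a encodes a subunit of the inner COPII coat, which selects cargo and buds vesicles from the ER. Its level was 174.6, 178.7 and 151.9 CPM in CTL, with replicate 3 the lowest, against 75.5, 81.8 and 76.1 CPM in CTK-2. It was 169.9, 183.1 and 172.4 CPM in GAL against 80.5, 82.2 and 85.5 CPM in CTK2+GAL. The lowest library without cytokines thus lay far above the highest with them. The log2 fold change was -1.11 in CTK-2 versus CTL (SE 0.0676) and -1.08 in CTK2+GAL versus GAL (SE 0.0669, adjusted p = 4.21e-10), so that 47.2% of the level in GAL was left. Only 1.79% of the tested genes had a lower log2 fold change in the latter comparison.

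Plaa encodes a ubiquitin-binding partner of the ATPase p97, the motor that extracts proteins for degradation. It lay at 231.4, 231.1 and 201.9 CPM in CTL and at 117.3, 120.3 and 123.0 CPM in CTK-2. In GAL the values were 232.0, 239.2 and 218.3 CPM and in CTK2+GAL 123.6, 127.6 and 130.8 CPM. As in Sec23a, CTL replicate 3 was the lowest of its group, and no library with cytokines reached a library without them. The log2 fold change was -0.88 in CTK-2 versus CTL (SE 0.0637) and -0.85 in CTK2+GAL versus GAL (SE 0.0634, adjusted p = 4.94e-09).

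Yod1 encodes a deubiquitinase that works with p97 on proteins withdrawn from the ER. It had 55 to 161 counts in a library. Its level was 21.0, 24.4 and 18.8 CPM in CTL and 13.8, 10.9 and 14.6 CPM in CTK-2. In GAL it was 21.3, 17.9 and 19.3 CPM and in CTK2+GAL 13.2, 12.2 and 17.8 CPM, where replicate 3 came close to the lowest GAL library without reaching it. The log2 fold change was -0.70 in CTK-2 versus CTL (SE 0.161) and -0.37 in CTK2+GAL versus GAL (SE 0.16, adjusted p = 0.0748), with a 95% interval from -0.71 to -0.03 in the latter. Without CTK2+GAL replicate 3 the latter was -0.591 and passed (adjusted p = 0.0115), and without CTK-2 replicate 2 the former shrank to -0.58 and was not called.

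Bag2 encodes a cochaperone that releases client proteins from Hsp70 and restrains the ubiquitin ligase CHIP. It was counted 6 to 45 times in a library. It lay at 5.16, 4.77 and 4.70 CPM in CTL and at 1.46, 2.18 and 1.85 CPM in CTK-2, a log2 fold change of -1.39 (SE 0.357). In GAL its replicates were spread over 2.33, 7.54 and 4.12 CPM and in CTK2+GAL over 3.89, 3.02 and 2.44 CPM, so that the lowest GAL library lay below all CTK2+GAL libraries. The log2 fold change there was -0.76 (SE 0.317, adjusted p = 0.0656). GAL replicate 2 decided this value, which was -0.22 without it (adjusted p = 0.662), -0.95 without replicate 1 (adjusted p = 0.0172) and -0.92 without replicate 3 (adjusted p = 0.046). With galinex on both sides the fall of Bag2 had an unadjusted p of 0.0278 (edgeR) but was not called after adjustment. Because the libraries overlapped and the value rested on GAL replicate 2, this fall is not firm.

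Wfs1 encodes wolframin, a glycoprotein of the ER membrane that takes part in calcium balance and in restraint of the unfolded protein response. It had 20 to 53 counts in a library. Its level was 7.05, 5.96 and 8.11 CPM in CTL and 4.81, 3.82 and 4.45 CPM in CTK-2, a log2 fold change of -0.71 (SE 0.211). In GAL it was 7.76, 7.201 and 5.50 CPM, with replicate 3 inside the range of the 5.83, 5.15 and 5.87 CPM of CTK2+GAL. The log2 fold change of CTK2+GAL versus GAL was -0.24 (95% interval -0.66 to 0.19, adjusted p = 0.393). The call in CTK-2 versus CTL was the least firm of the 7, since it was lost without CTL replicate 3 (-0.588, adjusted p = 0.0611), without CTK-2 replicate 2 (-0.614, adjusted p = 0.058) and in DESeq2.

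**Figure D2:**
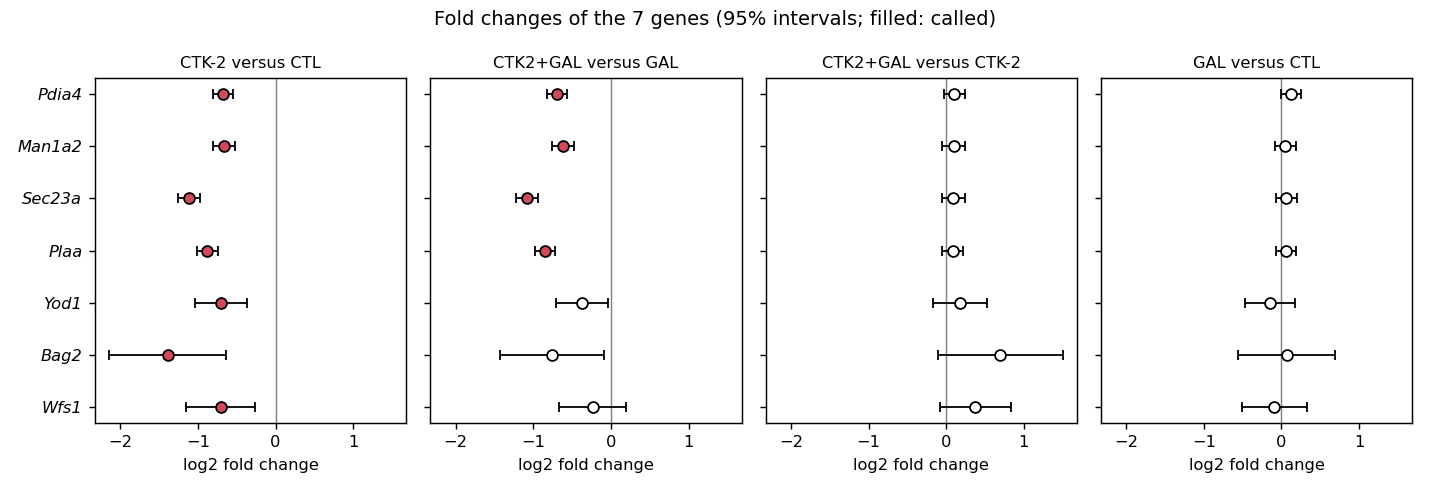
Log2 fold change (horizontal axis) of the 7 genes in 4 comparisons, with 95% intervals from edgeR's quasi-likelihood fit and filled points for calls. The intervals lie below 0 for all 7 genes in CTK-2 versus CTL and for all but Wfs1 in CTK2+GAL versus GAL, and every interval of both galinex comparisons includes 0.

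Whether galinex changed these genes in cells exposed to cytokines was asked by CTK2+GAL versus CTK-2. None of the 7 was called by edgeR or DESeq2, and none had an unadjusted p under 0.05 in either tool. Over all 13348 genes 0 were called and 4.08% had an unadjusted p under 0.05 in edgeR. All 7 values were above 0, between 0.08 (Plaa) and 0.70 (Bag2), so that the mean level was higher in CTK2+GAL in each. The study describes the ER set that holds these genes as lower in CTK2+GAL, which is opposite to the sign found here. Leading-edge genes of one set share a sign by construction, so nothing is read from the common sign. Because the direction of that ranking could not be settled from these counts, it is not known which sign the choice favoured. The libraries of Pdia4, Plaa, Bag2 and Wfs1 did not overlap, with CTK2+GAL higher, which held in either direction for 11.5% of all genes. The same libraries had a part in the choice of the 7 genes, so nothing is read from this share either. For Pdia4, Man1a2, Sec23a and Plaa the 95% intervals reached no further than 0.24 on the log2 scale upward and -0.06 downward, so that a change of the size of the fold threshold lay outside them. For Bag2 the interval ran from -0.11 to 1.504, for Wfs1 from -0.08 to 0.83 and for Yod1 from -0.17 to 0.53, which in Bag2 and Wfs1 takes in the fold threshold.

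Galinex alone, in GAL versus CTL, gave values between -0.15 (Yod1) and 0.12 (Pdia4) on the log2 scale. No member was called by edgeR or DESeq2, with 0 of 7 at an unadjusted p under 0.05 in both, beside 4.30% of all genes in edgeR. Pdia4 came nearest, with its 3 GAL libraries above the 3 CTL libraries (log2 fold change 0.12, SE 0.061, adjusted p = 0.997), and 8.32% of all genes showed no overlap in either direction. With CTL and GAL libraries of the same number as pairs, no member was called either, and the value of Pdia4 was again 0.12 (SE 0.0668, adjusted p = 0.991).

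The change with cytokines was then compared between the backgrounds without and with galinex through the interaction term. It was called for 0 of the 7 genes by edgeR and by DESeq2, again with 0 of 7 at an unadjusted p under 0.05 in either, beside 2.82% of all genes in edgeR. In Pdia4, Man1a2, Sec23a and Plaa the difference of log2 fold changes lay between -0.02 and 0.05, with 95% intervals inside -0.2042 and 0.2487. In Yod1 it was 0.33 (95% interval -0.15 to 0.81), in Bag2 0.63 (-0.39 to 1.65) and in Wfs1 0.47 (-0.15 to 1.09). The loss of the call in these 3 genes with galinex on both sides is therefore not shown to be a difference between the backgrounds.

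**Figure D3:**
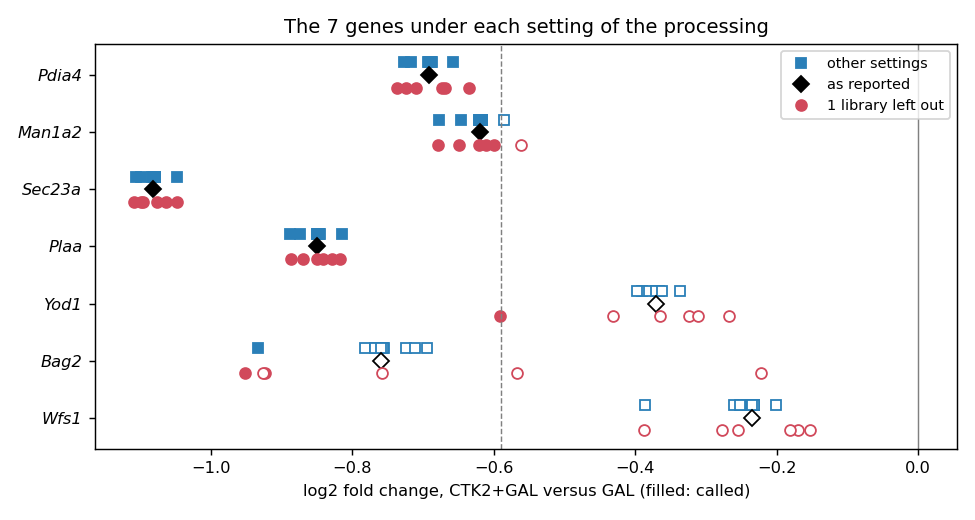
Log2 fold change of CTK2+GAL versus GAL (horizontal axis) for each of the 7 genes as reported (diamond), with 1 library left out (circles) and under the other settings of the processing (squares), with filled marks for calls and a dashed line at the fold threshold. Sec23a, Plaa and Pdia4 are called throughout, Bag2 runs from -0.95 to -0.22, and no mark of any gene is above 0.

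The other genes of ER protein handling were taken from 8 lists with 175 symbols in all, of which 15 could be joined to a gene, the 7 described above and 8 more. These were Sdf2l1 from a list of 28 folding genes, Preb and Sec16b from 16 COPII genes, Svip from 35 genes of ER-associated degradation, Chac1, Creb3l2 and Nfe2l2 from 20 genes of the unfolded protein response and Magt1 from 12 oligosaccharyltransferase genes. No further gene was joined from 17 genes of glycan trimming and 23 cytosolic chaperones and cochaperones, and none at all from 24 translocation genes. In CTK-2 versus CTL 5 of the 8 were lower and 3 higher, where 5.79% and 11.5% of all genes were called, a count fixed by the source of the symbols. In CTK2+GAL versus GAL 3 fell, 2 rose and 3 did not pass, where 5.74% of all genes were called lower and 11.7% higher. The 8 genes were already known to differ with the same cytokines in CTK-2 versus CTL. All tested genes are therefore not a like set here, and nothing is read from these counts.

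Svip, an inhibitor of ER-associated degradation that binds p97, fell by 1.55 on the log2 scale in CTK2+GAL versus GAL (SE 0.295, adjusted p = 0.000357), from 6.98, 5.02 and 6.36 CPM to 1.94, 2.13 and 1.99 CPM. It had few counts, 18, 30 and 37 in the GAL libraries and 10, 12 and 18 in those of CTK2+GAL. Chac1, a glutathione-degrading enzyme at the end of the ATF4 and CHOP branch of the response, fell by 1.47 (SE 0.169, adjusted p = 1.4e-06), from 11.6, 13.9 and 15.8 CPM to 4.67, 5.68 and 4.99 CPM. Creb3l2, an ER-anchored transcription factor that is cut to become active, fell by 0.69 (SE 0.0763, adjusted p = 7.92e-07), from 118.7, 120.1 and 112.4 CPM to 66.5, 80.2 and 70.6 CPM. The libraries with and without cytokines did not overlap in any of these 3 genes.

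Both genes that rose had few counts without cytokines. Nfe2l2, the transcription factor of the oxidative stress response, rose by 1.30 (SE 0.24, adjusted p = 0.000265), from 2.33, 2.68 and 2.92 CPM in GAL to 4.86, 7.28 and 7.53 CPM in CTK2+GAL. Sec16b, which organises ER exit sites where Sec23a acts, was counted 0, 1 and 3 times in the GAL libraries and 19, 27 and 46 times in those of CTK2+GAL (log2 fold change 3.95, 95% interval 2.81 to 5.09, adjusted p = 1.15e-05). In CTL it was counted 2, 0 and 3 times. It thus passed the filter on low counts only through the libraries with cytokines, where it is high, and its call is a description only. Magt1, a subunit of the enzyme that attaches N-glycans (-0.56, adjusted p = 0.000449), Sdf2l1, a partner of ER chaperones (-0.43, adjusted p = 0.00355), and Preb, which starts COPII coat assembly (0.43, adjusted p = 0.00157), passed the test on p but not the fold threshold. Within the COPII list, Sec23a and Sec16b were called in opposite directions, and nothing is read from this because of how Sec16b passed the filter. None of the 8 genes was called by edgeR in CTK2+GAL versus CTK-2 or in GAL versus CTL, with 1 and 0 of them at an unadjusted p under 0.05, and DESeq2 called 0 as well.

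**Figure D4:**
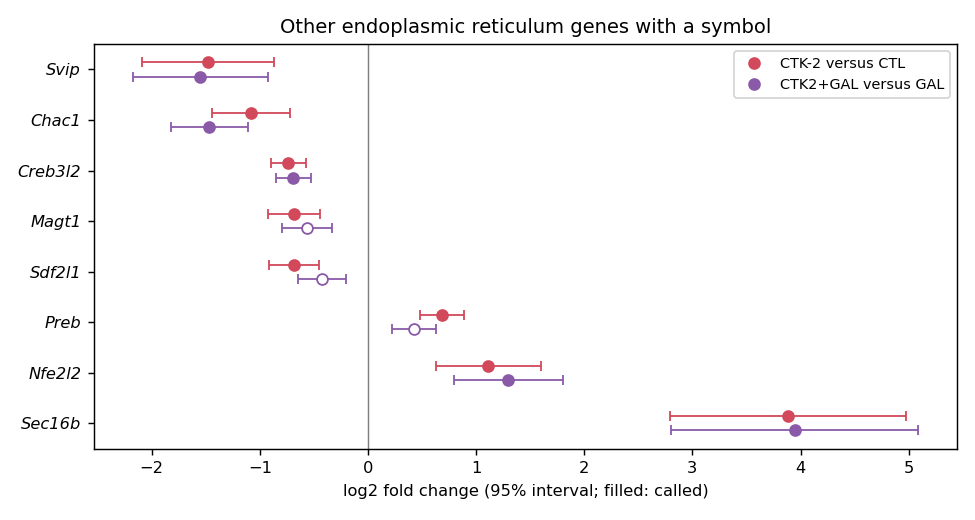
Log2 fold change (horizontal axis) with 95% interval of the 8 other ER genes with a symbol, in CTK-2 versus CTL and in CTK2+GAL versus GAL, with filled points for calls. Svip, Chac1 and Creb3l2 lie below 0 and Nfe2l2 and Sec16b above 0 in both comparisons, and Sec16b has the widest intervals.

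Across the 12 libraries the levels of the 4 abundant genes ran closely together. The Pearson correlation of log2 CPM was 0.997 between Sec23a and Plaa, and the lowest of all 21 pairs was 0.497, between Yod1 and Bag2. The 12 points fall into libraries with and without cytokines, so these values mostly carry that split. Taken around the group means the correlation was 0.826 between Sec23a and Plaa and 0.721 between Pdia4 and Sec23a, but 0.0297 between Man1a2 and Sec23a and -0.522 between Yod1 and Bag2. CTL replicate 3, with its raised interferon-induced genes, was the lowest CTL library in Sec23a (151.9 CPM), Plaa (201.9 CPM) and Pdia4 (108.0 CPM). How far the correlations around the group means rest on that library was not tested.

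The genes most like each member were sought among the 1772 other genes with a symbol. For Sec23a they were Hmgcs1, which encodes a synthase of the mevalonate pathway (r = 0.998 over 12 libraries), Plaa and Tspan3 (both 0.997), and for Plaa they were Hmgcs1, Sec23a and Gpat4 (each 0.997). For Pdia4 they were Idh1, the cytosolic isocitrate dehydrogenase (0.995), Msmo1, a sterol methyl oxidase (0.995), and Idi1, an isomerase of the isoprenoid units (0.992). Man1a2 was most like Jmy (0.992), Acsl4 (0.99) and Aacs (0.987). The 3 scarcer genes had looser neighbours, Atl1 (0.925), Syde2 and Tmem255a (both 0.921) for Yod1, Fam162a (0.892), Kcnrg (0.858) and Gstm3 (0.856) for Bag2, and Acer3 (0.887), Syndig1 (0.863) and Tmem186 (0.849) for Wfs1. These neighbours come from genes called in CTK-2 versus CTL, and they share the libraries and their depth.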

How the data were processed

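RNA was sequenced in 12 libraries of 4 groups with 3 replicates each. The values are counts of read pairs per gene, which the authors deposited without normalization. The authors used FastQC and STAR, and per the file headers featureCounts 2.0.0 assigned reversely stranded pairs to Ensembl exons on mRatBN7.2 where both ends had mapped. Chimeric pairs and pairs that fitted several genes were not counted, which lowers the counts of near-identical genes.

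Genes averaging 5 or more counts were normalized by TMM and tested with edgeR 4.0.16 (R 4.3.3, quasi-likelihood, 1 mean per group, all libraries in one model), with Benjamini-Hochberg adjustment across the 13348 genes. Each SE was taken as the size of the log2 fold change over the root of F. Tested on simulated data for CTK2+GAL versus GAL with 13348 genes, the fit called 78 of 100 genes changed by 1 on the log2 scale, 93 of 100 changed by 2 and 3 of 13148 unchanged genes. The simulation changed only these genes, as many up as down, while 2324 genes were called in the data. Its rates are therefore not those of the real comparison. Correlations used log2(CPM + 0.5).

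The 7 genes and the lists were chosen with earlier results of these data known. The rule for named genes took the 7 genes, up to 3 DEGs of each ER list with the smallest adjusted p in CTK2+GAL versus GAL, related genes such as Hspa5, Ddit3, Xbp1, Atf4, Man1a1, Sec23b and Bag3, which had no symbol and were not analysed here, and the 3 genes most like each member. One listed marker is not reported here. Magt1, Sdf2l1 and Preb were named after their values were seen. CTL and GAL libraries of the same number deviated together from their group means (r = 0.258, 0.26 and 0.596). Only 3 of 18 same-number pairs over all groups exceeded 0.1, so pairs were used for GAL versus CTL alone. Unlike numbers came near, with r = 0.233 for CTL replicate 1 and GAL replicate 2 and 0.149 for CTL replicate 2 and GAL replicate 1. Unlike pairs with a replicate 3 lay between -0.436 and -0.307. These values thus mostly set replicate 3 apart and are weak ground for pairing replicates 1 and 2. Alternatives were DESeq2 1.42.0, its size factors, total counts, other filters on counts or on the interquartile range, models of the compared groups only, a replicate block, no fold threshold and each library left out.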

Additional observations from a re-analysis of the deposited data

How the results depend on the processing

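Sec23a, Plaa and Pdia4 stayed called lower in both cytokine comparisons under every alternative run. The count of members called lower ran from 5 to 7 in CTK-2 versus CTL and from 4 to 5 in CTK2+GAL versus GAL with 1 library left out, and was 6 and 4 in DESeq2 and 7 and 3 with total counts. With the replicate block these counts were 7 and 4, with 2320 and 2321 DEGs over all genes, and the block changed no call of a member. Of the 12 libraries, 10 correlated best with a library of their own number. Leaving out CTL replicate 3 and GAL replicate 3 together, chosen after seeing the data, ended the call of Wfs1 in CTK-2 versus CTL (-0.588, adjusted p = 0.0641) and made one of Bag2 in CTK2+GAL versus GAL (-0.93, adjusted p = 0.0297). Bag2 was also called there without a filter on low counts (-0.77, adjusted p = 0.0362). Without the fold threshold 5213 and 5290 of all genes passed in the 2 cytokine comparisons, and 5 other ER genes were lower in CTK2+GAL versus GAL. Over all genes, GAL versus CTL gave 2 DEGs and the interaction 4 without the filter, 4 and 6 without CTL replicate 3 and GAL replicate 3, and 0 in both with any 1 library left out.

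Signs turned only for values that were not called, and the cause was not tested. With 1 library left out, GAL versus CTL ran from -0.0088 to 0.11 in Man1a2, from -0.0084 to 0.10 in Sec23a, from -0.010 to 0.090 in Plaa, from -0.47 to 0.26 in Bag2 and from -0.19 to 0.06 in Wfs1. Wfs1 was at 0.17 there without CTL replicate 3 and GAL replicate 3, and Bag2 at -0.0067 with CTL and GAL libraries as pairs. The interaction ran from -0.062 to 0.041 in Pdia4, from -0.014 to 0.10 in Man1a2, from -0.0139 to 0.097 in Sec23a and from -0.0072 to 0.093 in Plaa, and CTK2+GAL versus CTK-2 from -0.041 to 0.28 in Yod1. Bag2, Wfs1 and Yod1 had the lowest counts of the 7 genes and the widest intervals.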
